A study of Mus musculus with 4 samples.

Results

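Peaks lying in transcripts made of a single exon were taken from the m6A peak lists of mouse spinal cord. They are the peaks whose deposited annotation placed them in exon 1 of 1 of an Ensembl transcript. This gave 912 of 33556 peaks in the CCI list and 1061 of 34406 peaks in the sham list, 2.72% (95% Wilson interval 2.55 to 2.90%) and 3.08% (2.91 to 3.27%). The intervals cover the counting of peaks only. The peaks belonged to 822 genes, of which 485 had such a peak in both lists.

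The spinal cords came from C57BL/6J mice 6 to 8 weeks old, 7 days after surgery. In the CCI (chronic constriction injury) group the sciatic nerve was loosely ligated, and in the sham group the same surgery was done without a ligature, per the labels. The study's section on surgery describes only ligation of a spinal nerve. Its figure legend for the m6A sequencing names CCI or sham surgery, as the labels do. How the CCI surgery was done is known only from the labels. Poly(A) RNA was fragmented and either immunoprecipitated with an antibody against m6A (IP) or kept as input, with 1 IP and 1 input library in each group, and the number of mice behind a library is not given. With 1 IP library per group there was no replicate check, so every difference below compares these libraries and no p-value is given for it. The deposited lists hold no read counts, and sequencing depth is unknown.

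N6-methyladenosine (m6A) is a methyl mark placed on adenosines of RNA, mostly within the letters GGAC or close variants of them, by a complex that acts while RNA is being made. Along ordinary spliced messenger RNAs the mark is concentrated around the stop codon and in long internal exons, and the protein complexes left at exon junctions are known to keep it away from short exons. A single-exon transcript has no exon junction. Genes of this build include the clustered beta protocadherins, many G protein-coupled receptors, several families of transcription factors, histones, processed pseudogenes, the long noncoding RNA Neat1 and the genes of the mitochondrial genome.

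Of the 822 genes, 677 had a name in the lists and 145 had only an identifier. RefSeq matched 485 of the 822 (59.0%), too few to describe the types of all of them. The matched genes were 319 protein-coding genes, 91 pseudogenes, 69 long noncoding RNAs and 6 other RNAs. Names of predicted genes (Gm followed by digits) and RIKEN clones made up 289 genes. A peak in an exon of a multi-exon transcript was also found in 83 of the 822 genes. The annotated transcript was also the transcript of the row's gene column for 610 peaks in CCI and 711 in sham, and another transcript of the same gene stood there for 98 and 106. In the other 204 peaks (22.4%, 19.8 to 25.2%) and 244 peaks (23.0%, 20.6 to 25.6%), the single-exon transcript lay within or beside another gene, and the lists cannot tell which of the overlapping RNAs was methylated. Overlapping peaks also stood as separate rows. In CCI 158 of the 912 peaks overlapped another one, and merging them left 832 sites, and in sham 170 of 1061 did, leaving 973 sites.

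The 3 annotated microRNA precursors and a set of transcripts with peaks beside the start of another gene are shown in sequence, since there the peak, the RNA and the surrounding genome can be read together. Sequences are from RefSeq (GRCm38.p6), the build the submitters' notes name. The core GGAC is in capitals in the hairpins and in the longer stretches below. Peaks covered the whole hairpin of Mir5125 (chr17:23823291-23823369, plus strand), Mir6363 (chr16:50727132-50727245, plus strand) and Mir6244 (chr9:52115623-52115739, plus strand) in both lists.
Mir5125 hairpin: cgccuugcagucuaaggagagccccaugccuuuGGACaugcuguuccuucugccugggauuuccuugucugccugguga
Mir6363 hairpin: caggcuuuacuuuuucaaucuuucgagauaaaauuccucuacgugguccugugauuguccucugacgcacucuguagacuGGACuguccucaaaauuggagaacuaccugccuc
Mir6244 hairpin: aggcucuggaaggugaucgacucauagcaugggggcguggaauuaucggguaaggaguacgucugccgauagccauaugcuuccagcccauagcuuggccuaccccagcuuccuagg
In the mature microRNAs the seed, bases 2 to 8, is in capitals, and the 3 seeds differ from each other.
mmu-miR-5125: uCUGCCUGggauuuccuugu
mmu-miR-6363: uGUAGACUggacuguccucaaa
mmu-miR-6244: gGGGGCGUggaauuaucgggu
Mir5125 and Mir6363 each held GGAC 1 time, and Mir6244 held none. Of 406 RefSeq hairpins within 10 bases of the length of Mir5125, 23.4% held GGAC, and of 135 like Mir6363, 29.6% did. A match of the letters is a description and not a mapped site.

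The Mir5125 peak had the same borders as the hairpin in both lists, with fold enrichment of IP over input of 11.5 in CCI and 11.7 in sham. The Mir6363 peaks, of 601 and 661 bases, held the whole hairpin and lay mostly upstream of it, with fold enrichments of 9.0 and 8.74. The peaks at these 2 hairpins had nearly the same value in CCI and sham. For Mir6244, the peak with the borders of the hairpin had 11.5 in CCI and 5.81 in sham (log2 ratio 0.99). Its support was weak, with log10 false discovery rates of -2.33 and -2.13, against -26.5 and -28.2 for Mir5125. A sham row of 1107 bases that also held the hairpin had 9.30, and its partner, a CCI peak of 689 bases downstream of the hairpin in a row of Zc3h12c, had 9.64 (0.05). A further CCI row over the hairpin, of 210 bases, had 4.22 and was in no pair. Both Mir6244 pairs were higher in CCI and neither reached 2-fold. Whether the reads at these hairpins came from the precursors or from longer RNAs over the same bases was not tested.

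Some of the peaks reached into the RefSeq promoter window (250 bases before to 50 after the start) of a neighbouring gene. Such a window, of a gene other than the one named in the row, was overlapped by 35 of the 912 CCI peaks (3.84%, 2.77 to 5.29%) and 33 of the 1061 sham peaks (3.11%, 2.22 to 4.34%). Peaks in exons of multi-exon transcripts overlapped one in 1.03% (0.856 to 1.23%) and 1.09% (0.912 to 1.30%), and peaks in 5'-UTRs in 10.6% and 10.4%. Where the row's transcript was the annotated one, so that its strand was known, 25 CCI peaks and 27 sham peaks did so. The gene of the window lay on the opposite strand for 24 of the 25 and for 27 of the 27. The lists give no strand for a peak, so whether the reads came from the single-exon transcript or from its neighbour was not tested.

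In 11 of these transcripts, not protein-coding in RefSeq, a pair of peaks shared at least 60 bases of the window. The 4 longest stretches are shown with Phtf1os, which had the largest difference between the libraries. Each is printed 5' to 3' on the strand of the single-exon transcript and lies upstream of the start of the neighbour.
D430040D24Rik, beside Sema4c, chr1:36558386-36558631, plus strand: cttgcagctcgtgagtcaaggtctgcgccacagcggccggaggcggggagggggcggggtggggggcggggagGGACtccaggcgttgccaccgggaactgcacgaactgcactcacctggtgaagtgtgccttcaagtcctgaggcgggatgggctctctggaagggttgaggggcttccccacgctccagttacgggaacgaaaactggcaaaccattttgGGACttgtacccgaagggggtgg
AC159296.1, beside Fut8, chr12:77237854-77238036, minus strand: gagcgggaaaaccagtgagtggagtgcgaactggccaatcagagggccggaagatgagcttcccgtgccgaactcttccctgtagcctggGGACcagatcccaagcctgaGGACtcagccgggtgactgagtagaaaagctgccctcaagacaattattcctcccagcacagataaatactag
Gm9954, beside Nwd2, chr5:63648921-63649100, minus strand: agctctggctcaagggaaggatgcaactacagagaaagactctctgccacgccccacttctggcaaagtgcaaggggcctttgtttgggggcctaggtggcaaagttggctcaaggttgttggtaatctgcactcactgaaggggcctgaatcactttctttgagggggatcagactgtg
AC133650.1, beside Tmem42, chr9:123021076-123021212, minus strand: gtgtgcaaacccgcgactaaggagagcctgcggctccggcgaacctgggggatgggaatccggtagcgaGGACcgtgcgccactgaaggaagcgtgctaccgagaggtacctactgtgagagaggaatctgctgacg
Phtf1os, beside Phtf1, chr3:103967892-103967982, minus strand: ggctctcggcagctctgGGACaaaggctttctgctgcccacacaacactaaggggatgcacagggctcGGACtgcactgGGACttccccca
GGAC stood 2 times in the D430040D24Rik stretch, 2 times in that of AC159296.1, 1 time in that of AC133650.1, 3 times in that of Phtf1os and 0 times in that of Gm9954. Over the 11 stretches 6 held it on the transcript strand and 4 on the other. The same offsets of all 32851 promoter windows held GGAC in 58.9% for D430040D24Rik, 48.8% for AC159296.1, 48.6% for Gm9954, 39.3% for AC133650.1 and 28.6% for Phtf1os. The share was higher for longer stretches.

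D430040D24Rik had the same peak borders in both lists, with fold enrichment of 14.8 in CCI and 13.6 in sham. AC159296.1 had 13.6 and 9.30, and AC133650.1 had 31.3 and 16.7. Gm9954 had 7.64 in CCI and 3.63 in sham, a log2 ratio of 1.07. Phtf1os went the other way, with 6.78 in CCI and 30.2 in sham, a log2 ratio of -2.16. The promoter-side transcripts thus included pairs that were higher, lower and close to equal in CCI.

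Peaks in single-exon transcripts had a higher fold enrichment than most other classes of peak. Their median was 7.81 in CCI (interquartile range 4.07 to 13.4) and 7.73 in sham (4.23 to 14.9). All other peaks had medians of 5.66 and 5.64. Peaks in exons of multi-exon transcripts were at 4.53 and 4.61, peaks in 3'-UTRs at 5.92 and 5.81, and peaks in 5'-UTRs at 8.51 and 8.21. The peaks were also shorter, with a median exonic length of 181 bases in CCI and 180 in sham against 229 and 239 in all other peaks. Their evidence was weaker. The median log10 false discovery rate of IP against input was -6.94 in CCI and -5.67 in sham, against -15.7 and -17.5 in all other peaks.

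By type of gene, fold enrichment was highest in pseudogenes, at a median of 9.90 over 66 CCI peaks and 11.6 over 93 sham peaks. Reads from a processed pseudogene can be shared with its parent gene, so values at pseudogenes are uncertain. Protein-coding genes had medians of 6.57 (393 peaks) and 6.64 (439 peaks). Long noncoding RNAs had 7.69 (90 peaks) and 7.22 (102 peaks). Unnamed genes had 9.38 (135 peaks) and 9.30 (179 peaks). Names were taken from the gene column, so by construction the unnamed genes were those whose rows held another gene there.

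**Figure D1:**
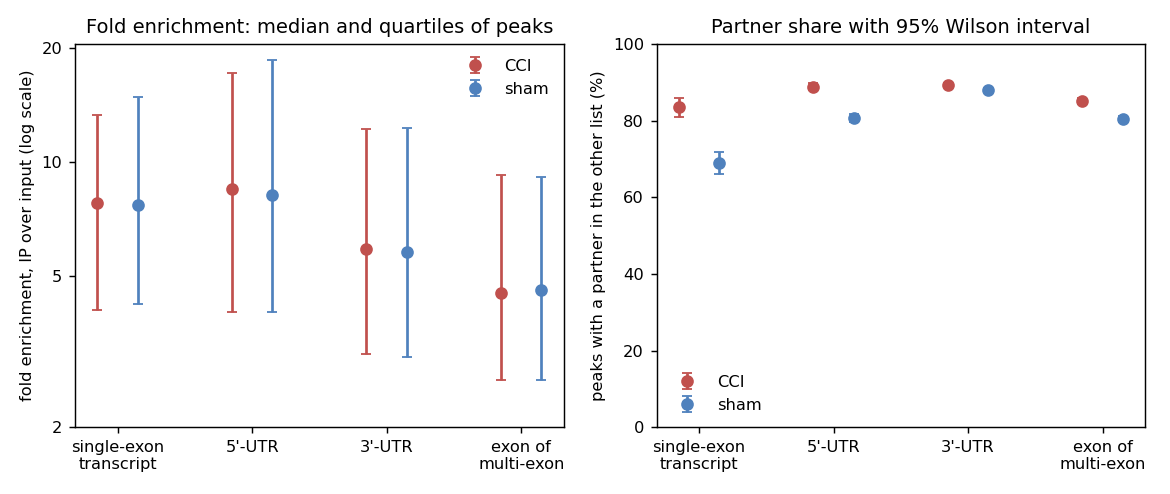
Left, median fold enrichment of IP over input (log axis, points) with quartiles (bars) for peaks in single-exon transcripts, 5'-UTRs, 3'-UTRs and exons of multi-exon transcripts, in CCI (red) and sham (blue). Right, percent of peaks with a partner in the other list with 95% Wilson intervals; the sham single-exon peaks sit lowest, at 69.0%.

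Peaks in single-exon transcripts were less often found in the other list. A partner was any peak of the other list sharing at least 1 base. In CCI, 150 of the 912 had none (16.4%), beside 12.3% of the whole list. In sham, 329 of the 1061 had none (31.0%), beside 16.1% of the whole list. The share with a partner was 83.6% (81 to 85.8%) in CCI and 69.0% (66.1 to 71.7%) in sham, against 87.8% (87.5 to 88.2%) and 84.3% (83.9 to 84.7%) in all other peaks. In both lists the intervals of single-exon and other peaks did not overlap.

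The peaks without a partner were short and weakly supported. In sham their median exonic length was 117 bases against 239 in those with a partner, and their median log10 false discovery rate was -2.65 against -10.5. In CCI the lengths were 120 and 210.5 bases and the log10 rates -2.80 and -9.14. Their fold enrichment was not lower throughout, at a median of 8.13 in sham without a partner and 7.61 with one. In CCI it was 5.99 and 7.98. When all peaks of a list were ordered by p-value and cut into 4 groups of equal size, 43.2% of the CCI and 48.4% of the sham single-exon peaks were in the weakest group, and 24.5% and 24.2% of all other peaks. Within that group, 68.8% (64.0 to 73.2%) of single-exon peaks in CCI had a partner, against 62.4% (61.3 to 63.4%) of other peaks. In sham it was 43.3% (39.1 to 47.6%) against 49.8% (48.7 to 50.9%). In the next group the shares were 89.7% and 89.1% in CCI and 86.8% and 86.7% in sham, with overlapping intervals.

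Many of these values were shared by large numbers of peaks. Between fold enrichments of 10 and 20, 14 values in CCI and 10 in sham were each held by at least 100 peaks of the list. The value 12.8 was held by 396 sham peaks and 13.9 by 374. Of the single-exon peaks in this range, 146 of 225 in CCI (64.9%, 58.4 to 70.8%) and 212 of 302 in sham (70.2%, 64.8 to 75.1%) had such a value, against 38.9% and 39.2% of other peaks. A partner was found for 38.2% (31.9 to 44.9%) of the 212 in sham and for 95.6% (89.1 to 98.3%) of the 90 others. In CCI the shares were 78.1% (70.7 to 84.0%) and 97.5% (91.2 to 99.3%). A fold enrichment at 1 of these shared values, such as 11.6 or 13.9 in sham, came with a median exonic length of 121 bases, against 330.5 bases elsewhere in the range.

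The strongest unpaired peaks in sham were in Gm11223, a pseudogene in RefSeq, at 41.8, and Gm42670 at 26.7, followed by Prcp, Pet100 and Gm11620 at the same value of 25.6. In CCI they were in 4932442E05Rik at 33.9, Gm25262 at 28.1, the unnamed ENSMUSG00000066538 at 20.8, Pcdhb15 at 19.3 and Pcdhb14 at 18.2. Another CCI row of 4932442E05Rik was paired, as given below.

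Along the transcript, the median peak position lay before the middle, except in pseudogenes. The relative position of the peak centre, from 0 at the 5' end to 1 at the 3' end, could be computed for 610 CCI and 711 sham peaks. The centre was the midpoint of the genomic borders of the peak. In peaks with more than 1 exonic block, 27 of the 912 in CCI and 34 of the 1061 in sham, it can lie outside the transcript. Such a position was set to 0 or 1. The median position was 0.376 in CCI and 0.390 in sham. In genes that RefSeq calls protein-coding the median was 0.312 (295 peaks, interquartile range 0.198 to 0.490) and 0.329 (334 peaks, 0.193 to 0.503). In all other genes it was 0.456 (315 peaks) and 0.472 (377 peaks), in long noncoding RNAs 0.354 (69 peaks) and 0.322 (81 peaks), and in pseudogenes 0.611 (59 peaks) and 0.546 (85 peaks). With the transcript cut into 10 bins of equal length, bins 2 and 3 held 56 and 63 of the 295 CCI peaks in protein-coding genes, and the last bin held 4. In sham they held 60 and 58 of 334, and the last bin again 4. The annotation gives a UTR precedence over an exon, so a peak in the UTR of an intronless coding gene is not counted here, which removes the ends of coding transcripts from this distribution. Noncoding transcripts have no such gap. How far the removal of UTR peaks shapes the median position in coding genes was not tested.

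**Figure D2:**
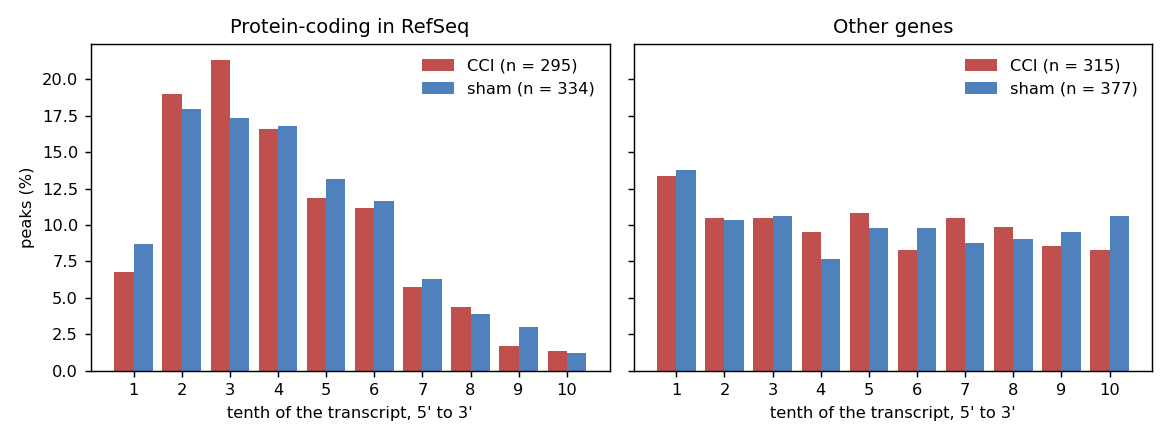
Percent of peaks (vertical axis) in each of 10 equal bins of the annotated transcript from 5' to 3' (horizontal axis) in CCI (red) and sham (blue), for protein-coding genes in RefSeq (left) and all other genes (right). Coding genes held most peaks in bins 2 to 4 and very few in the last ones, where UTR peaks are annotated as UTR, and the other genes held peaks along the whole length.

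Between the groups, the pairs of single-exon peaks spread more widely than other pairs around nearly the same centre. Mutual best partners formed 691 pairs in which at least 1 peak was single-exon, of 27380 pairs in all, and in 628 of them both peaks were. Fold enrichment in CCI over that in sham had a median log2 ratio of -0.02 over the 691 pairs (interquartile range -0.58 to 0.54) and 0.03 over all pairs (-0.37 to 0.43). In 336 pairs CCI was higher and in 355 lower. At least 2-fold higher in CCI were 87 pairs (12.6%, 10.3 to 15.3%), beside 8.59% of all pairs. At least 2-fold lower were 88 pairs (12.7%, 10.5 to 15.4%), beside 7.25% of all pairs.

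The wider spread was seen at low and high enrichment. With a geometric mean fold enrichment under 5, 14.9% (10.6 to 20.5%) of 195 single-exon pairs differed at least 2-fold in either direction, against 6.32% (5.88 to 6.79%) of other pairs. Between 5 and 10 it was 26.1% (20.6 to 32.4%) of 211 pairs against 18% (17.2 to 18.9%). At 10 or more it was 31.9% (26.8 to 37.6%) of 285 pairs against 25.2% (24.3 to 26.1%). The pairs were not matched on p-value or exonic length, and single-exon peaks were shorter and less well supported, as given above. Whether this spread goes beyond that between replicate libraries cannot be told, since there are none.

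**Figure D3:**
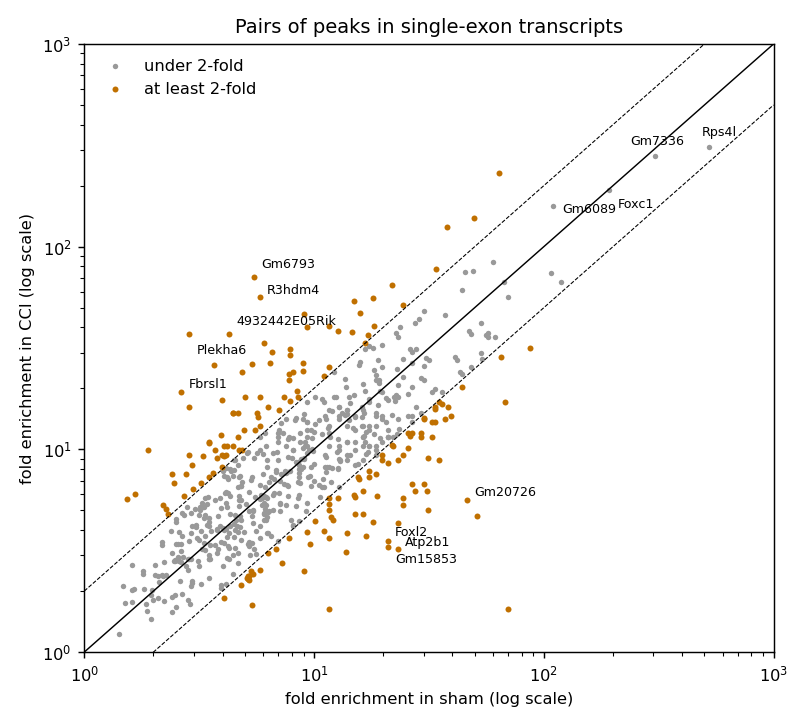
Fold enrichment in CCI (vertical, log axis) against sham (horizontal, log axis) for 691 pairs of peaks, at least 1 of each pair in a single-exon transcript; the solid line marks equality and the dashed lines 2-fold. The 175 pairs beyond 2-fold (orange) lie on both sides in similar number, 87 above and 88 below.

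The highest enrichments were in pseudogenes, Foxc1 and unnamed transcripts. Rps4l, a ribosomal protein S4-like gene typed as a pseudogene in RefSeq, had 310 in CCI and 522 in sham, in rows whose gene column held Tmtc1. Gm7336 had 281 and 306, and Gm6089 had 159 and 110, and both are pseudogenes in RefSeq. Foxc1, a forkhead transcription factor, had 191 in CCI and 192 in sham, a log2 ratio of -0.01. The strongest Foxc1 peak lay in the coding part, at relative position 0.197 of a transcript of 5844 bases. The unnamed ENSMUSG00000082884, in rows of Myo3a, had 230 and 63.9, and ENSMUSG00000108614, in rows of Bag3, had 66.7 and 119. Of these 6, only ENSMUSG00000082884 differed by more than 2-fold.

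The largest differences were taken from pairs with a false discovery rate below 0.01 and a fold enrichment of at least 2 in both lists, which 623 pairs met. The highest CCI values relative to sham came first. Gm6793, a pseudogene within rows of Terf2ip, had 70.9 in CCI and 5.48 in sham, a log2 ratio of 3.69. Plekha6 had 37.0 and 2.86 (3.69), R3hdm4 56.3 and 5.81 (3.28), 4932442E05Rik 37.0 and 4.26 (3.12) and Fbrsl1 19.3 and 2.64 (2.87). In the 4932442E05Rik pair, in rows of Dyrk2, the sham peak was not single-exon and the peaks shared 91 bases. The unpaired CCI row of 4932442E05Rik given above, with 33.9, did not overlap that sham peak. The opposite pairs were Gm20726, in rows of Cdh24, with 5.66 in CCI and 46.5 in sham (-3.04), and Atp2b1, a plasma membrane calcium pump, with 3.22 and 23.2 (-2.85). Gm15853 had 3.30 and 20.9 (-2.66). The unnamed ENSMUSG00000108024, in rows of Irak2, had 5.04 and 31.4 (-2.64) and Foxl2, another forkhead factor, 3.52 and 20.9 (-2.57). Support for the lower peak of a pair varied, with log10 false discovery rates from -11.4 in R3hdm4 to -2.16 in ENSMUSG00000108024. It was also near the limit of 0.01 in Gm15853 (-2.17), Foxl2 (-2.18), Plekha6 (-2.46) and 4932442E05Rik (-2.57). None of the 5 pairs higher in CCI had the annotated transcript as the transcript of its row, and 2 of the 5 lower ones did, Gm15853 and Foxl2. For Plekha6, R3hdm4, Fbrsl1 and Atp2b1 the single-exon transcript is 1 of several of the gene, and the row held another. Whether the reads at these genes came from the single-exon transcript was not tested.

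Among the lists of coding genes used here, the clustered beta protocadherins had the most single-exon peaks. These cell-adhesion proteins help give neurons individual surface identities, and each is encoded by a single exon in a tandem array on chromosome 18. Of the 22 listed genes 21 had single-exon peaks, in CCI and in sham, with 56 and 63 peaks. Chromosome 18 held 95 of the 912 CCI peaks (10.4%, 8.60 to 12.6%) and 110 of the 1061 sham peaks (10.4%, 8.67 to 12.3%), against 2.88% and 2.99% of all other peaks. The family's peaks had a median fold enrichment of 12.5 in CCI (interquartile range 5.73 to 21.4) and 7.75 in sham (4.75 to 21.2). These medians cover unlike sets of peaks. No partner was found for 4 of the 56 in CCI and 15 of the 63 in sham, beside 12.3% and 16.1% of the whole lists. The relative position had a median of 0.303 in CCI and 0.324 in sham.

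Pcdhb4 had the strongest CCI peak of the family, 77.7 against 34.1 in sham, a log2 ratio of 1.19. Pcdhb6 had 27.8 in CCI and 53.8 in sham (-0.95), Pcdhb21 29.9 and 53.5 (-0.84), and Pcdhb20 37.3 and 48.4 (-0.38). Over 45 pairs the median log2 ratio was 0.26 (-1.84 to 2.83). At least 2-fold higher in CCI were 6 of the 45 pairs and lower 5, beside 8.59% and 7.25% of all pairs. All 45 pairs together had 26 higher and 19 lower in CCI. Of the strongest pairs of the 21 genes, 9 were higher and 12 lower in CCI, so the family had no common direction. Within single genes, chosen after their values were seen, the pairs also differed. In Pcdhb16 the pair nearer the 5' end had 26.1 and 3.68 (2.83), and the next one 28.7 and 41.1 (-0.52). In Pcdhb2 the pair in the middle had 10.5 and 21.8 (-1.05) and the one nearer the 3' end 16.2 and 6.28 (1.37).

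Of 79 listed G protein-coupled receptors, 18 had single-exon peaks. Among their 16 pairs 11 were lower in CCI (median log2 ratio -0.34), beside 355 of the 691 single-exon pairs. Overlapping rows of Drd5 entered as separate pairs. No partner was found for 1 of 20 peaks in CCI and 9 of 25 in sham, beside 12.3% and 16.1% of the whole lists. Chrm4 and Chrm5 are muscarinic acetylcholine receptors. Chrm4 had 22.0 in CCI and 19.1 in sham (0.20) and Chrm5 6.52 and 11 (-0.75). Fzd8 and Fzd10 are receptors for Wnt ligands. Fzd8 had 13.6 and 32.5 (-1.26) and Fzd10 11.2 and 12.7 (-0.18). Only Fzd8 was at least 2-fold lower. Gpr12, an orphan receptor named after its values were seen, had 6.85 and 2.46 (1.48). It was the only one at least 2-fold higher. Over all pairs 7.25% were at least 2-fold lower and 8.59% at least 2-fold higher. Among potassium channels, Kcnj11, a subunit of ATP-sensitive channels, had 8.23 and 8.93 (-0.12) and Kcna5 had 5.00 and 6.64 (-0.41).

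Of 20 listed forkhead, CEBP and zinc-finger factors, 11 had single-exon peaks. Over 11 pairs the median log2 ratio was 0.01. Foxc1 was equal in the 2 libraries, as given above. Mafa, a basic leucine zipper factor, had 46.9 in CCI and 15.8 in sham (1.57) in its stronger pair. Its other pair had 8.69 and 8.48 (0.04). Foxl2 was lower in CCI in both of its pairs, the stronger with 20.3 and 44.2 (-1.12). Insm1, a zinc-finger factor of neuroendocrine cells, had 13 and 11.6 (0.16). Of 18 POU, SOX and bHLH factors 6 had single-exon peaks and formed 3 pairs. Sox21 had 11.5 and 32.5 (-1.50), where the sham peak was longer and annotated as 5'-UTR. Sox11 had 7.12 and 15.7 (-1.14) in its stronger pair, and 4.38 and 3.49 (0.33) in the other.

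All 18 immediate early and stress genes had some peak, and 4 had single-exon peaks. Jund, a subunit of the AP-1 transcription factor, had 138 in CCI and 49.6 in sham with the same borders, a log2 ratio of 1.48, in rows whose gene column held Gm11175. An overlapping row in Jund had 3.20 and 3.37, so the rows of this locus disagreed on the size of the difference. Junb, another AP-1 subunit, had 9.68 and 17.1 (-0.82), with a longer sham peak annotated as 5'-UTR. Hspa1b, an inducible heat shock protein, had 28.7 and 65.1 (-1.18) in the peak at relative position 0.351. A second Hspa1b pair had 6.21 and 31.1 (-2.32), where the sham peak was longer and annotated as 3'-UTR.

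Of 35 leucine-rich repeat and adhesion genes 3 had single-exon peaks. Pcdh10, a nonclustered protocadherin, had 19.4 in CCI and 8.46 in sham (1.20), Amigo3 had 9.19 and 7.67 (0.26) and Slitrk1 had 5.80 and 6.18 (-0.09). Replication-dependent histones, whose RNAs mostly lack a poly(A) tail, had single-exon peaks in 3 genes. Hist1h1e had 2.38 and 5.23 (-1.14), Hist1h2be 2.14 and 3.92 (-0.87) and Hist2h2be 7.34 and 6.49 (0.18).

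**Figure D4:**
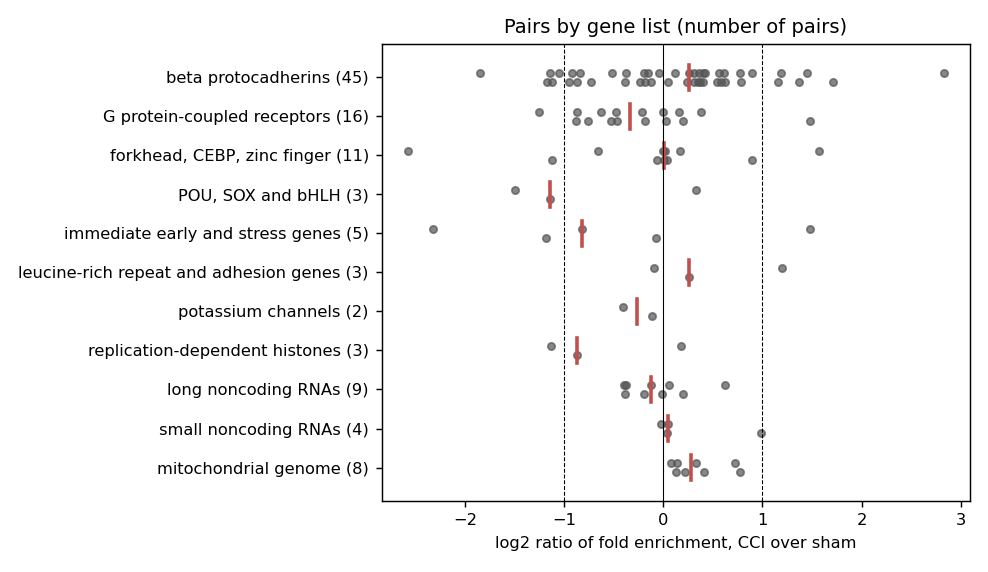
Log2 ratio of fold enrichment, CCI over sham (horizontal axis) of every pair with a single-exon peak in 11 gene lists (rows, number of pairs in brackets); each point is a pair, the red bar is the median and dashed lines mark 2-fold. The 45 beta protocadherin pairs reach from -1.84 to 2.83, and the 8 mitochondrial pairs, which share a compact genome, from 0.07 to 0.77.

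All 10 CCI and 10 sham peaks on the mitochondrial chromosome were in single-exon transcripts. Mitochondrial genes lie side by side on a compact genome, so a peak can cover more than 1 gene. All 8 pairs of the list were higher in CCI, beside 336 of the 691 single-exon pairs, and none reached 2-fold (median log2 ratio 0.28). These pairs lie on the same compact genome and come from 1 IP library per group. They are therefore not 8 separate observations of a direction. Whether the shared direction goes beyond the difference between replicate libraries was not tested. The strongest was at the 3' end of mt-Nd4, a subunit of respiratory complex I, with 40.3 in CCI and 23.6 in sham (0.77). A peak in mt-Nd2, in a row of mt-Tw, had 26.0 and 15.7 (0.73). mt-Cytb, a subunit of complex III, had 4.75 and 4.51 (0.07) and mt-Atp8, a subunit of ATP synthase, 3.87 and 2.92 (0.41).

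Of 24 listed long noncoding RNAs 4 had single-exon peaks. Neat1, the scaffold of nuclear paraspeckles, had the most single-exon peaks of any gene, 12 in CCI and 13 in sham, several of them overlapping rows. On its transcript of 20771 bases the peaks with a computable position lay between 0.009 and 0.150. These positions are relative to that annotated transcript, and which Neat1 transcript the RNA came from was not tested. The strongest rows lay at the 5' end and overlapped each other. A row at position 0.009 in CCI had 76.1 and one at 0.010 in sham had 48.2, and the rows that formed the pair, annotated to another Neat1 transcript, had 75.5 and 49.1 (0.62). Further 3' followed a peak with 7.79 and 7.47 (0.06), one with 1.84 and 2.10 (-0.19), one with 1.91 and 2.49 (-0.38) and one with 6.66 and 5.81 (0.20). No Neat1 pair reached 2-fold. The long noncoding RNA 2900097C17Rik had 4.99 and 5.44 (-0.12), and Mirg, an imprinted microRNA host gene, had 3.26 and 4.28 (-0.39).

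Gm43305, a long noncoding RNA in RefSeq with a transcript of 4901 bases, had 7 peaks in each list spread along its length. The strongest, at relative position 0.38, had 83.6 in CCI and 60.4 in sham (0.47). A peak at the 3' end had 28.1 and 30.8 (-0.13). The peak at 0.17 had 14.4 and 5.69 (1.34) and was the only pair of the gene past 2-fold. Prob1, a proline-rich protein gene, had 4 rows in CCI and 11 in sham. Its region in the middle of the transcript was covered by overlapping rows of 12.2 and 11.6 in CCI and by rows of 16.8, 15, 12.1 and 6.0 in sham, so the difference in number rests partly on how the region was cut. Gm10524 had the strongest remaining pair of the predicted and RIKEN names, with 74.0 in CCI and 108 in sham (-0.55). Over the 214 pairs with such a name the median log2 ratio was 0.02, with 35 at least 2-fold higher in CCI and 28 lower, beside 8.59% and 7.25% of all pairs.

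Magel2, Mkrn3 and Ndn are intronless, paternally expressed genes of an imprinted region on chromosome 7, named here after their values were seen. Magel2 had 5 peaks in CCI and 4 in sham along a transcript of 4631 bases. At relative positions near 0.18, 0.39 and 0.57 the pairs had 8.86 and 13, 21 and 16.3, and 8.73 and 13, all within 2-fold. Weaker peaks, of 2.49 and 2.69 in CCI and 4.36 in sham, had no partner. Mkrn3 had peaks of 7.30 and 7.43 in CCI and 12.8 in sham that did not overlap each other. Ndn had a coding peak of 1.66 in CCI and 2.5 in sham, beside a 3'-UTR peak, which is not among the single-exon peaks, of 1710 in CCI and 6910 in sham.

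**Figure D5:**
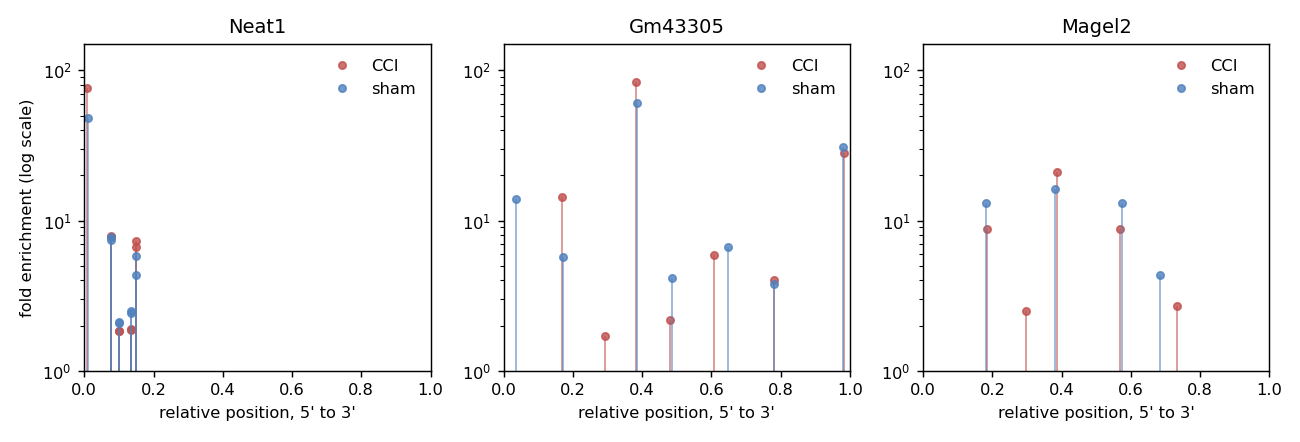
Fold enrichment (vertical, log axis) of each single-exon peak whose row names the annotated transcript, against its relative position from 5' to 3' (horizontal axis), in Neat1, Gm43305 and Magel2, in CCI (red) and sham (blue). The Neat1 peaks all lie before 0.150 of the transcript, and those of Gm43305 and Magel2 are spread along it.

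The tissue markers were those of spinal cord glia and neurons. Some peak was found in 5 of 5 genes each for oligodendrocytes, astrocytes and microglia, 4 of 5 for neurons and 4 of 5 spinal Hox genes in both lists. Forebrain and liver markers had a peak in 1 of 5 genes each in both lists, and markers of the dorsal root ganglion in 0 of 5 in CCI and 2 of 5 in sham.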

How the data were processed

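MeRIP-seq peak lists of CCI and sham spinal cord were used, each made by the authors from 1 IP and 1 input library. The deposited fold enrichment is a ratio of IP over input, the deposited p-value a score column and the p-value and false discovery rate log10 scores, per the file headers. The submitters' processing notes name fastp, HISAT2, HOMER, ChIPseeker and GRCm38, the study's methods name bowtie and MACS2, and the column names are those of exomePeak, so the peak caller is not settled. Another table with the authors' own comparison of CCI with sham (fold changes and p-values) was not used. Depth is unknown, and intervals cover counting error only.

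Members were rows annotated exon 1 of 1. The gene in the gene column was taken as the gene of the row, since the peak caller's gene is not given separately. Exonic blocks sharing at least 1 base made partners, mutual best pairs by shared bases over the union gave log2 ratios, and 95% Wilson intervals gave the error of shares. Positions beyond a transcript end were set to 0 or 1. The work was done in Python 3.11.15 with pandas 2.3.3, scipy 1.17.1 for intervals and matplotlib 3.10.9 for plots, and the pairing code was tested on simulated data. Genes named are the 5 highest pairs per list, the 5 largest rises and falls, the 3 genes with most peaks and up to 4 per gene list; a few others are given where a count turns on them. Members and lists were chosen with earlier results of these data known. Alternatives are given in the closing section.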

Additional observations from a re-analysis of the deposited data

How the results depend on the processing

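No paired analysis was possible because the IP of a group was sequenced as a single library, so nothing here rests on a test. Of 78 values recomputed under alternatives, 65 stayed within the interval of the value reported, or for counts of pairs within 1.5 times. With fold enrichment of at least 2, the sham share of single-exon peaks was 3.32%. With 1 peak per gene, the shares were 3.71% in CCI and 4.115% in sham, the shares whose transcript belonged to the gene of the row 72.35% and 71.59%, the median fold enrichments 10.4 and 12.6 and the median positions 0.4365 and 0.4615; taking the strongest peak of each gene raises the median by construction. Where the shared bases had to make up 50% or more of each of the partners, 65.24% of CCI and 55.7% of sham single-exon peaks had a partner, since fewer overlaps qualify. With overlapping members counted as 1, chosen after seeing the data, the shares were 2.485% and 2.835%, since rows are removed. The median log2 ratio lay between -0.05 and -0.004 under every alternative run. The counts of pairs at least 2-fold higher lay between 62 and 87 and of those lower between 59 and 90. A false discovery rate below 0.01, leaving out the mitochondrial chromosome, keeping only transcripts of the gene of the row and centring the ratios moved no value past these limits. The absence of read counts limits every fold enrichment, and 1 library per group limits every difference.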
